A study of Rattus norvegicus with 12 samples.

Results

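The expression of 9 core genes of apoptosis and of the p53 response (Bcl2, Bcl2l1, Mcl1, Bax, Bbc3, Fas, Casp8, Mdm2 and Cdkn1a) was examined in rat lung. They were found by the RefSeq accession of each probe on the array, were 9 of 14737 genes with a symbol, and had 15 probes, all of them detected. The arrays measured left upper lobe RNA of male Sprague-Dawley rats aged 8 to 12 weeks, with 3 rats in each of 4 groups. Control rats received air or saline on the same schedule. The CS+LPS group, a model of chronic obstructive pulmonary disease (COPD), was exposed to cigarette smoke (CS) and had lipopolysaccharide (LPS), a bacterial wall component, instilled into the trachea. The CS+LPS+NaHS group received the same exposures after intraperitoneal injections of sodium hydrosulfide, which releases hydrogen sulfide (H2S). The CS+LPS+PPG group received them after injections of propargylglycine, an inhibitor of the H2S-forming enzyme CTH. The methods mention no injection of vehicle in the CS+LPS group, and no group received NaHS or PPG without smoke and LPS.

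Apoptosis is decided to a large part at the outer mitochondrial membrane, where survival proteins (Bcl2, Bcl-xL from Bcl2l1, and Mcl1) restrain pore-forming proteins such as Bax, while BH3-only proteins such as Puma, from Bbc3, counter the survival proteins. A separate route starts at death receptors such as Fas, which activate caspase 8. The transcription factor p53 raises Bbc3, Bax, Fas, Cdkn1a and Mdm2, and Mdm2 marks p53 for degradation. Loss of alveolar epithelial and endothelial cells by apoptosis has long been discussed in emphysema.

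Values are log2 of the processed signal after the 75th percentile of each array was set equal, so 1 unit is a fold of 2. Each gene is given by its most intense probe, and levels of different probes are not compared. A probe was called when limma gave it an unadjusted p under 0.05 with a fold of 2 or more, the study's thresholds, or, as a separate rule, a Benjamini-Hochberg adjusted p under 0.05 over all 21239 detected probes. An exact permutation test of 3 against 3 arrays cannot give a p under 0.1. Slide 2 held the 3 CS+LPS arrays and control 3, and slide 1 held all other arrays. CS+LPS against control was therefore also computed within slide 2, where control 3 is the only control, and the treated groups against control within slide 1, where controls 1 and 2 remain. The value within slide 2 compares with a single rat, so its spread comes from the other groups, and 41.6% of all detected probes then had an adjusted p under 0.05; it is given here as a size without a p. Control 3 had the lowest 75th percentile of signal, 1229, against 2110 to 3261.5 on the other arrays, and correlated least with the rest (Pearson's r across probes of 0.94 to 0.96). Surfactant genes of alveolar type 2 cells were among the brightest probes, with Sftpc at percentile 99.99 of the detected probes. The summed signal of 7 detected neutrophil markers of 8 ran from 12.96 to 14.23 in control rats, and in the exposed groups from 13.99 to 15.04 (CS+LPS), 14.01 to 15.03 (NaHS) and 14.63 to 15.13 (PPG). That of 3 detected macrophage markers of 5 was 11.99 to 13.03 in control and 13.62 to 14.31 over the exposed groups, without overlap. B cell markers (3 of 5 detected) also lay apart, at 10.63 to 11.47 in control and 11.68 to 12.61 in exposed rats. T cell markers (6 of 6) ran from 11.20 to 13.06 in control, 12.61 to 13.46 in CS+LPS and 12.69 to 13.12 with NaHS, overlapping control, and from 13.30 to 13.37 with PPG, above it. Endothelial markers (4 of 4) ran from 16.870 to 16.951 in control and lower, from 16.573 to 16.868, in exposed rats. Alveolar type 2 markers (6 of 6) were 19.90 to 20.34 in control, 19.79 to 19.88 in CS+LPS and 19.80 to 19.86 with NaHS. Club cell markers (3 of 3) were 18.164 to 19.246, 17.831 to 18.133 and 17.862 to 18.161. With PPG both overlapped control, as did alveolar type 1 and ciliated cell markers in every exposed group. The part of all these cells in the results below was not tested. In whole lung, fewer cells of a type and less RNA per cell cannot be told apart.

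Promoters are shown for the genes on which the results turn, since several of the 9 are p53 targets. RefSeq sequence of assembly GRCr8 gave the 250 bases before a start for 6 genes (9 starts, of which Bcl2l1 has 4), and Bax, Bbc3 and Casp8 had no entry. The windows lie at chr3:161764776-161765025 and chr3:161763386-161763635 (Bcl2l1, minus strand), chr1:241211905-241212154 (Fas, plus strand) and chr20:7150682-7150931 (Cdkn1a, plus strand). They read 5′ to 3′, and capitals mark matches to the searched motifs (the p53 half-site, the NF-kB site, a TATAAA box, a CCAAT box and a GGGCGG box, on both strands).
Bcl2l1, outermost start: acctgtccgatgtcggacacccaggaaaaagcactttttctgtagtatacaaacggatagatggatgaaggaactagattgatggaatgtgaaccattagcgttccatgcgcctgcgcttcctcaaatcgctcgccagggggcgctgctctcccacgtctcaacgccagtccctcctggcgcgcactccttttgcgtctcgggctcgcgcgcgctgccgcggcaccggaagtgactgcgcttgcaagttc
Bcl2l1, start with a CCAAT box: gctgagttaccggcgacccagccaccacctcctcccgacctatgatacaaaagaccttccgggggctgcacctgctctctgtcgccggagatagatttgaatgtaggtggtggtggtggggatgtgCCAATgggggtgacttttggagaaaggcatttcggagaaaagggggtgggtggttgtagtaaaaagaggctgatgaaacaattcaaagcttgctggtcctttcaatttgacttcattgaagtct
Fas: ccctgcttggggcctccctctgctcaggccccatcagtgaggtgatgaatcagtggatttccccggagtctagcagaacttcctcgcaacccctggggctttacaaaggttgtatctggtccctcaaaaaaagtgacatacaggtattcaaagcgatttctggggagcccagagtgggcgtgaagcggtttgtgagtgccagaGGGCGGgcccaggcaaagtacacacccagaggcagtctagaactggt
Cdkn1a: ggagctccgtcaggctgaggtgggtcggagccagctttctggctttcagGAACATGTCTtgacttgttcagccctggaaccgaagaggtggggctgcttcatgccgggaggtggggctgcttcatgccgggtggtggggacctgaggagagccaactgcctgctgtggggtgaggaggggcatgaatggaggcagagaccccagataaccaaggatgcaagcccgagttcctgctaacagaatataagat
The capitals in Cdkn1a are a p53 half-site 201 to 192 bases before the start, GAACATGTCT. No other of the 9 windows held one, and 6.64% of 33465 rat promoters did. An NF-kB site was found in Mcl1 alone, against 3.54% of all promoters. In Fas the capitals are a GGGCGG box, found in 30.5% of promoters, and in the second Bcl2l1 window a CCAAT box, found in 34%. A match is letters only and says nothing of binding in these lungs.

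On the most intense probes, Bcl2l1 was lower in every exposed group and Fas was higher in the treated groups, and a second Cdkn1a probe was lower in every exposed group. Counted over the 9 most intense probes, the fold rule called no gene in CS+LPS against control (4.56% of all detected probes were called), 1 with NaHS against control (Fas; 2.67%) and none with PPG against control (4.38%). Adjusted p of limma called 1 in CS+LPS (Bcl2l1; 2.02%), none with NaHS (0.0989%) and 1 with PPG (Bcl2l1; 4.64%). At an unadjusted p under 0.05 there were 1 (25.2%), 3 (17.1%) and 3 (29.3%). Groups did not overlap for 3 genes in CS+LPS (25.2%), 3 with NaHS (24.8%) and 4 with PPG (33.2%). Over all 15 member probes, the fold rule called 3 in CS+LPS, 3 with NaHS and 1 with PPG (4.56%, 2.67% and 4.38% of all detected probes). Adjusted p of limma called 1, 0 and 3 of them (2.02%, 0.0989% and 4.64%). Probes of the same gene are not independent. The median difference of the 9 genes from control was -0.26, -0.18 and -0.15, against -0.04, 0.00 and -0.01 over all detected probes. Shares of 9 genes near those of all probes are no result about the genes as a group, so the genes are described singly. The 3 comparisons with control share the same control rats.

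Bcl2l1, which encodes the survival protein Bcl-xL, was lower in every exposed group than in control. The signal was 14.95, 14.61 and 14.75 in control, 14.14, 13.60 and 14.19 in CS+LPS, 14.12, 13.99 and 13.90 with NaHS, and 13.86, 14.09 and 14.12 with PPG. All 9 exposed rats lay below all 3 controls, and the exposed groups overlapped each other. The difference from control was -0.79 (SE 0.17, a fold of 1.73) in CS+LPS, -0.76 (SE 0.17) with NaHS and -0.74 (SE 0.17) with PPG. The adjusted p of limma was 0.0466 in CS+LPS, 0.124 with NaHS and 0.0433 with PPG, so Bcl2l1 was called by adjusted p in the first and the last. The difference was as large within slides, at -0.77 in CS+LPS, -0.77 with NaHS and -0.75 with PPG. The call was less stable than the size. In CS+LPS it was lost on leaving out any single array except control 2, and with PPG any except control 2 or CS+LPS 2. Without control 3 the adjusted p of limma was 0.0736 in CS+LPS and 0.0608 with PPG.

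Of the other Bcl2l1 probes, 2 were lower as well. The next brightest, A_64_P008047, differed from control by -0.72 in CS+LPS and by -0.71 with NaHS without passing (limma, adjusted p = 0.0669 and 0.141), and was called with PPG at -0.72 (limma, adjusted p = 0.0496, and 0.0817 without control 3). A_44_P548065, designed to another RefSeq transcript, read 8.37, 7.39 and 9.01 in control, 7.19, 6.34 and 6.97 in CS+LPS, 7.33, 7.19 and 7.43 with NaHS, and 7.34, 7.33 and 7.48 with PPG. It fell by 1.42 in CS+LPS (a fold of 2.68, called by the fold rule, adjusted p = 0.0604 in limma), and its differences with NaHS (-0.94) and PPG (-0.87) were not called. The dimmest, A_64_P054730, ranged from 4.68 to 5.49 on every array except control 3, at 6.89, and was not called in any comparison. Its difference from control was -0.42 in CS+LPS, -0.63 with NaHS and -0.64 with PPG, and 0.14, -0.07 and -0.08 without control 3.

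Bcl2 and Mcl1, the other survival genes, were not called in any comparison. Bcl2 read 8.53, 8.23 and 9.14 in control, 8.33, 8.15 and 8.64 in CS+LPS, 8.21, 8.39 and 8.20 with NaHS, and 8.40, 8.28 and 7.74 with PPG. The groups overlapped, and the highest value was again control 3. The difference from control was -0.26 in CS+LPS (95% interval -0.80 to 0.28), -0.37 with NaHS (-0.91 to 0.17) and -0.50 with PPG (-1.04 to 0.05). Within slide 2 it was -0.77 for CS+LPS, against control 3 alone, and without control 3 it was -0.01. Mcl1, a short-lived survival protein, read 11.75, 11.41 and 11.46 in control, 11.24, 11.40 and 11.10 in CS+LPS, 11.41, 11.16 and 11.08 with NaHS, and 11.24, 11.59 and 11.42 with PPG. CS+LPS lay just below control without overlap, at -0.30 (95% interval -0.64 to 0.04), and the treated groups overlapped control.

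**Figure D1:**
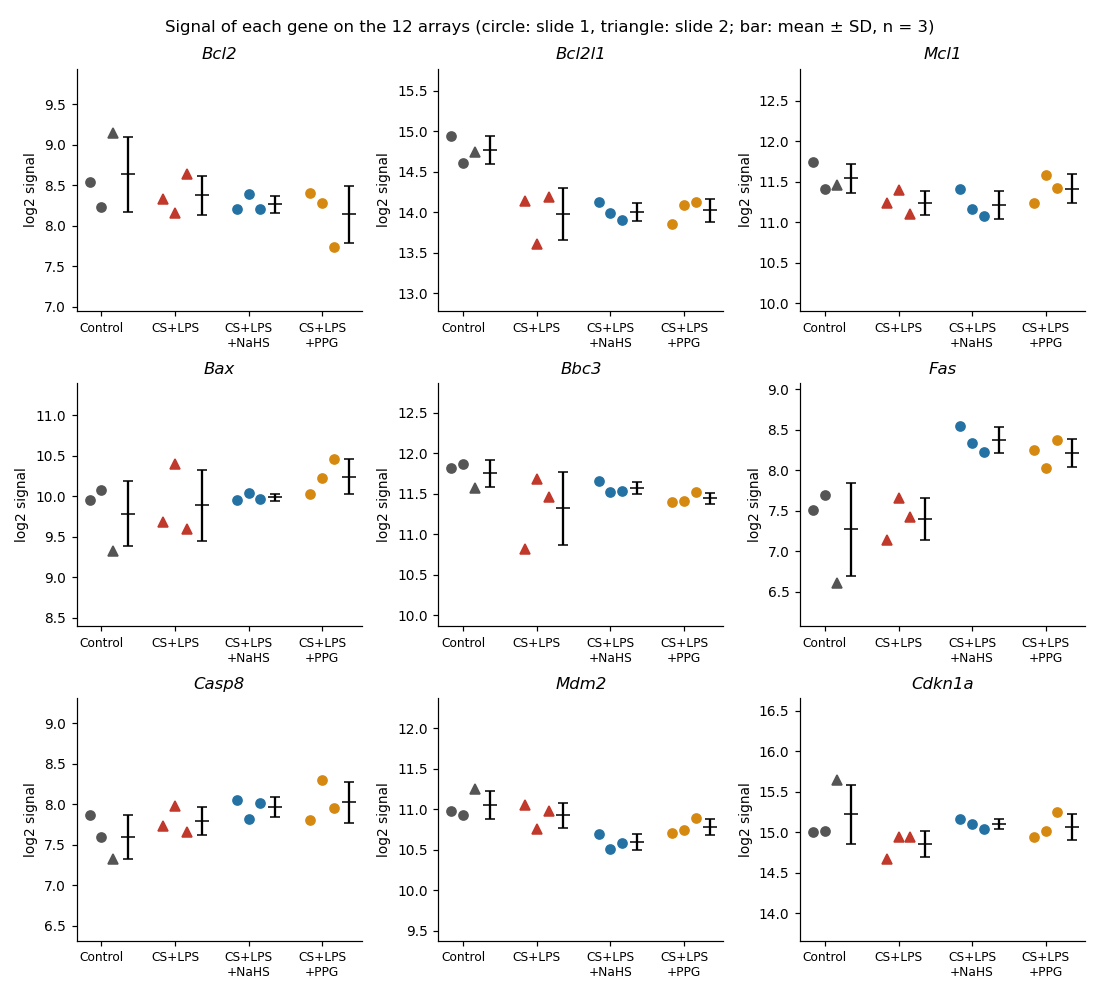
Log2 signal of the most intense probe of each of the 9 genes on the 12 arrays, by group, with circles for slide 1, triangles for slide 2 and the mean ± SD (n = 3) beside each group. Each panel spans 3 log2 units. Bcl2l1 lies lower in all exposed rats (13.60 to 14.19) than in control (14.61 to 14.95), and Fas lies higher with NaHS or PPG (8.03 to 8.54) than in control (6.61 to 7.69).

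Bax and Bbc3, which promote death at the mitochondria, were not called in any comparison. Bax read 9.95, 10.07 and 9.33 in control, 9.68, 10.40 and 9.60 in CS+LPS, 9.95, 10.04 and 9.96 with NaHS, and 10.03, 10.23 and 10.46 with PPG. Its difference from control was 0.11 in CS+LPS (95% interval -0.43 to 0.64), 0.20 with NaHS (-0.33 to 0.74) and 0.46 with PPG (-0.08 to 0.99). Bbc3 read 11.82, 11.87 and 11.57 in control, 10.82, 11.69 and 11.47 in CS+LPS, 11.66, 11.52 and 11.54 with NaHS, and 11.40, 11.41 and 11.53 with PPG. The 3 PPG rats lay just below control, but the difference of -0.31 did not pass (95% interval -0.74 to 0.13). In CS+LPS it was -0.43 (95% interval -0.86 to 0.01), with CS+LPS 1 far below the other rats.

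The difference between Bax and a survival gene on the same array does not depend on the scaling of the arrays, and is comparable only between groups. Bax minus Bcl2 averaged 1.15 ± 0.86 (SD, n = 3) in control, 1.52 ± 0.66 in CS+LPS, 1.72 ± 0.06 with NaHS and 2.10 ± 0.57 with PPG, and the groups overlapped. The control value ranged from 0.18 on control 3 to 1.84. Bax minus Bcl2l1 averaged -4.99 ± 0.44 in control, -4.09 ± 0.76 in CS+LPS, -4.02 ± 0.13 with NaHS and -3.79 ± 0.11 with PPG. All treated rats lay above all controls, and CS+LPS overlapped control. These values are descriptive, since the pairs were chosen with earlier results known.

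**Figure D2:**
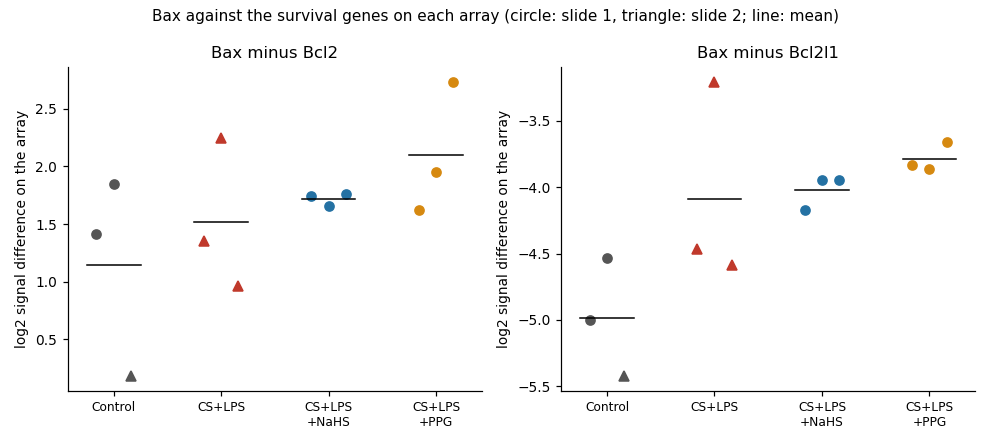
Difference in log2 signal between Bax and Bcl2 (left) and between Bax and Bcl2l1 (right) on each array, by group, with circles for slide 1, triangles for slide 2 and a line at the group mean. Bax minus Bcl2l1 runs from -5.42 to -4.54 in control and from -4.17 to -3.66 with NaHS or PPG.

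Fas, the death receptor, was higher in both treated groups than in control on its most intense probe, A_44_P463745. The signal was 7.5, 7.69 and 6.61 in control, 7.13, 7.65 and 7.42 in CS+LPS, 8.54, 8.34 and 8.23 with NaHS, and 8.25, 8.03 and 8.37 with PPG. All 6 treated rats lay above all control and CS+LPS rats, which overlapped each other. Against control the difference was 0.13 in CS+LPS (95% interval -0.43 to 0.70), 1.10 with NaHS (SE 0.26, a fold of 2.15) and 0.95 with PPG (SE 0.26, a fold of 1.93). NaHS passed the fold rule (limma, adjusted p = 0.131) and PPG did not (limma, adjusted p = 0.0582). Within slide 1, which leaves out control 3, the differences were 0.77 and 0.62, and NaHS no longer reached a fold of 2. For CS+LPS the difference was 0.79 within slide 2, against control 3 alone, and -0.20 without control 3. Against CS+LPS the difference was 0.97 with NaHS (limma, adjusted p = 0.155) and 0.81 with PPG (adjusted p = 0.261), short of both rules. These groups lie on different slides, and with the slide as a block the differences were -0.02 and -0.17. That estimate rests on control 3, the only control on slide 2. Without control 3 and without the block, the differences from CS+LPS stayed at 0.97 and 0.81 but passed by adjusted p of limma (0.0188 and 0.0406). Of all probes, 1.85% and 1.33% then passed.

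The other Fas probe, A_64_P131736, read 6.66, 6.81 and 5.40 in control, 6.87, 7.70 and 7.88 in CS+LPS, 7.74, 7.5 and 7.16 with NaHS, and 6.94, 7.47 and 6.85 with PPG. Every exposed rat lay above every control. The difference from control was 1.19 in CS+LPS (SE 0.38) and 1.18 with NaHS (SE 0.38), both called by the fold rule (limma, adjusted p = 0.105 and 0.195), and 0.80 with PPG, which was not called. Without control 3, which was lowest, the differences were 0.75 and 0.73, under a fold of 2. NaHS thus passed the fold rule on both probes, and CS+LPS on the dimmer one. Against CS+LPS, the dimmer probe did not share the higher signal of the brighter probe in the treated groups. Its difference was -0.02 with NaHS (limma, adjusted p = 0.995) and -0.40 with PPG (limma, adjusted p = 0.755), and the groups overlapped.

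Casp8, the protease that Fas activates, read 7.87, 7.59 and 7.33 in control, 7.73, 7.98 and 7.65 in CS+LPS, 8.05, 7.82 and 8.02 with NaHS, and 7.81, 8.30 and 7.95 with PPG. The groups overlapped, and Casp8 was not called. The difference from control was 0.19 in CS+LPS (95% interval -0.20 to 0.59), 0.37 with NaHS (-0.03 to 0.76) and 0.43 with PPG (0.03 to 0.82; limma, adjusted p = 0.146).

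Mdm2, the ubiquitin ligase that limits p53, was not called on either probe. The brighter, A_44_P634946, read 10.98, 10.93 and 11.25 in control, 11.05, 10.75 and 10.98 in CS+LPS, 10.70, 10.51 and 10.59 with NaHS, and 10.71, 10.74 and 10.89 with PPG. Both treated groups lay below control without overlap, at -0.46 with NaHS (95% interval -0.75 to -0.16; limma, adjusted p = 0.170) and -0.27 with PPG (-0.57 to 0.02). The dimmer, A_43_P16885, differed from control by -0.36 in CS+LPS (95% interval -0.69 to -0.04), 0.01 with NaHS (-0.31 to 0.34) and -0.05 with PPG (-0.38 to 0.27). Between NaHS and CS+LPS the probes pointed opposite ways, at -0.33 (-0.63 to -0.03) and 0.38 (0.05 to 0.70), neither called.

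Cdkn1a encodes p21, the cell cycle inhibitor that is the best known p53 target, and its probes also differed. The brighter, A_64_P123895, read 15.00, 15.01 and 15.64 in control, 14.67, 14.94 and 14.94 in CS+LPS, 15.16, 15.10 and 15.04 with NaHS, and 14.94, 15.01 and 15.25 with PPG. It was not called, with differences from control of -0.37 in CS+LPS (95% interval -0.77 to 0.03), -0.12 with NaHS (-0.52 to 0.28) and -0.15 with PPG (-0.55 to 0.25). Control 3 was the highest array: within slide 2 CS+LPS differed from that rat by -0.79, and within slide 1 the treated groups differed by 0.10 and 0.06.

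The dimmer Cdkn1a probe, A_44_P914438, whose position the authors' list gives as chromosome 20, bases 7386596 to 7386655, without a build, was lower in every exposed group. It read 13.78, 13.95 and 13.07 in control, 12.34, 12.04 and 12.80 in CS+LPS, 12.81, 12.12 and 12.80 with NaHS, and 11.94, 12.11 and 11.87 with PPG. No exposed rat reached the lowest control. The difference was -1.21 in CS+LPS (SE 0.27, a fold of 2.31; limma, adjusted p = 0.0515), -1.02 with NaHS (SE 0.27, a fold of 2.03; adjusted p = 0.147) and -1.63 with PPG (SE 0.27, a fold of 3.09; adjusted p = 0.0211). All 3 passed the fold rule, and PPG also by adjusted p. Within slides it was -0.68 in CS+LPS, against control 3 alone, and -1.29 and -1.89 with NaHS and PPG. CS+LPS then missed a fold of 2. Control 3 was the lowest control, and without it the CS+LPS difference was -1.47 (limma, adjusted p = 0.0280).

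**Figure D3:**
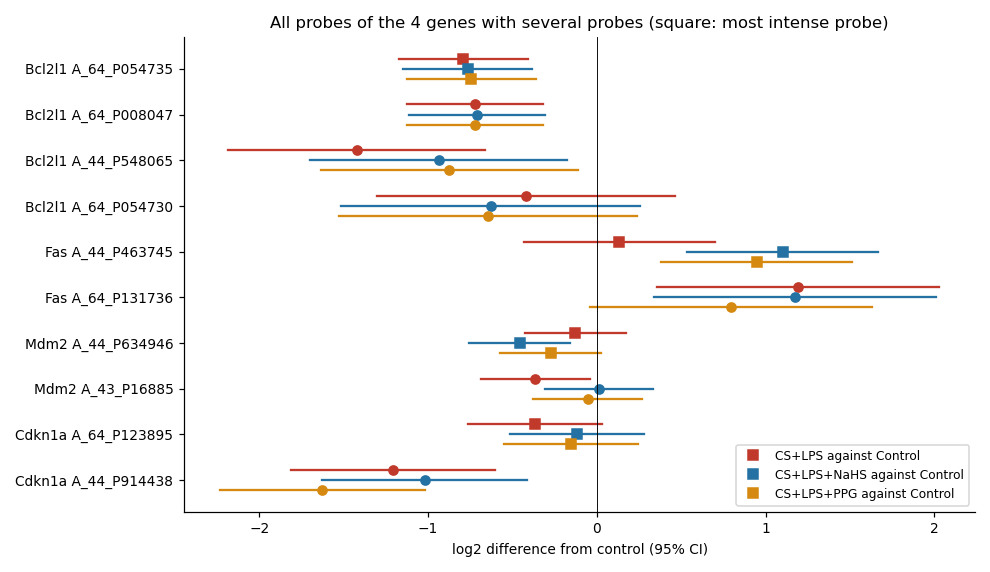
Difference from control in log2 signal with its 95% interval for every probe of the 4 genes that have several probes, in the CS+LPS group (red) and the groups given NaHS (blue) or PPG (orange), with squares for the most intense probe. All 4 Bcl2l1 probes lie left of 0 (the dimmest at -0.42 in CS+LPS, and at 0.14 without control 3), whereas the pairs of Fas, Mdm2 and Cdkn1a differ, with Cdkn1a at -0.15 on one probe and -1.63 on the other with PPG.

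None of the 9 genes was called between a treated group and CS+LPS by either rule. The fold rule called 1.7% of all detected probes with NaHS and 2.05% with PPG, and adjusted p of limma 0.593% and 0.523%. At an unadjusted p under 0.05 there were 2 genes with NaHS (Fas and Mdm2; 9.67%) and 1 with PPG (Fas; 10.5%), and the groups did not overlap for 3 (20.5%) and 1 (19.1%). For Bcl2l1 the difference from CS+LPS was 0.03 with NaHS (95% interval -0.35 to 0.41) and 0.05 with PPG (-0.33 to 0.43). For Bax it was 0.09 (-0.44 to 0.63) and 0.35 (-0.19 to 0.89).

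NaHS and PPG, which act on H2S in opposite ways, were also compared with each other, on 1 slide. No gene was called by either rule (0.523% of probes by the fold rule and 0% by adjusted p of limma), and none of the 9 had an unadjusted p under 0.05, against 8.74% of probes. Groups did not overlap for 1 gene (25.2%), Mdm2. The differences ranged from -0.26 for Bax (95% interval -0.79 to 0.28) to 0.15 for Fas (-0.41 to 0.72). Mdm2 was lower in all 3 NaHS rats, at -0.18 (-0.48 to 0.12). Outside the most intense probes, the dimmer Cdkn1a probe was higher with NaHS by 0.61 (0.00 to 1.21; limma, adjusted p = 0.571), also without overlap.

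**Figure D4:**
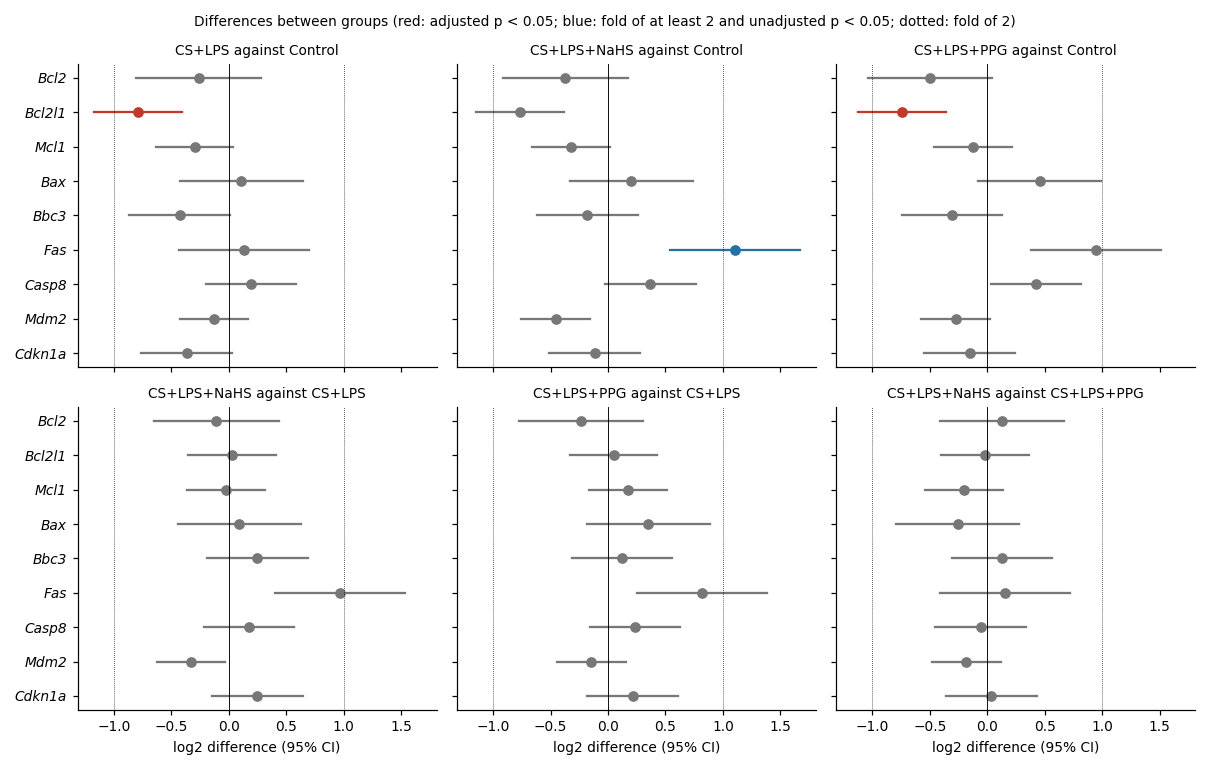
Difference in log2 signal between groups for the 9 genes in the 6 comparisons, with 95% intervals from the fit to all 12 arrays, red where the adjusted p was under 0.05 and blue where the fold was at least 2 with an unadjusted p under 0.05. Bcl2l1 is red in CS+LPS (-0.79) and in PPG (-0.74) against control, Fas is blue in NaHS against control (1.10), and all genes are grey in the comparisons between exposed groups.

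Of 86 other genes of these pathways in 6 lists, 75 were detected, and few were called. In CS+LPS against control the fold rule called 2 higher and 2 lower and adjusted p of limma 1 higher and 3 lower (4.56% and 2.02% of all detected probes were called). With NaHS it was 1 higher by the fold rule and none by adjusted p, where 4 were higher and 9 lower at an unadjusted p under 0.05 (2.67%, 0.0989% and 17.1% of all probes). With PPG it was 2 higher and 3 lower by the fold rule and 2 higher and 5 lower by adjusted p (4.38% and 4.64% of all probes). At an unadjusted p under 0.05, 8 were higher and 10 lower in CS+LPS (25.2% of all probes), and 11 and 12 with PPG (29.3%). No gene of the lists was called by limma between exposed groups, where an unadjusted p under 0.05 was found for 5 higher and 0 lower with NaHS against CS+LPS (9.67% of all probes), 2 and 5 with PPG against CS+LPS (10.5%), and 5 and 2 with NaHS against PPG (8.74%). The median of the 75 genes lay between -0.04 and -0.01 in the 3 comparisons with control.

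Among the other survival genes (6 detected), Bcl2a1, a Bcl2 relative that is abundant in leukocytes, was higher. It read 8.90, 9.15 and 7.56 in control, 9.66, 10.25 and 9.75 in CS+LPS, 9.69, 9.76 and 9.41 with NaHS, and 9.94, 10.01 and 10.17 with PPG, without overlap. The rise was 1.35 in CS+LPS, 1.09 with NaHS and 1.5 with PPG, all past the fold rule and the last by adjusted p of limma (0.0421). Control 3 was lowest, and without it the differences were 0.86, 0.60 and 1.02, of which only PPG kept a fold of 2 (limma, adjusted p = 0.0303). The neutrophil, macrophage and B cell marker sums moved in the same direction. Bcl2l10, another survival gene, fell by 1.33 in CS+LPS (limma, adjusted p = 0.0351) and by 1.01 with PPG (0.0506), both past the fold rule. Without a call, it fell by 0.79 with NaHS (limma, adjusted p = 0.201). Its signal was low, 4.58 to 6.75.

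Among pore-forming and BH3-only genes (10 detected), Bid, which links caspase 8 to the mitochondria, passed the fold rule in CS+LPS (1.01) and with PPG (1.04). With NaHS it differed by 0.93 and was not called. It read 6.65, 6.37 and 4.47 in control and 6.72 to 6.96 in the exposed rats, so the size rests on control 3. Without that array the differences were 0.33 in CS+LPS, 0.25 with NaHS and 0.36 with PPG. Bcl2l11, encoding the BH3-only protein Bim, fell by 0.86 with PPG (limma, adjusted p = 0.0380). It also fell by 0.73 in CS+LPS and by 0.64 with NaHS, neither called (limma, adjusted p = 0.0704 and 0.166). Its signal was low, and the exposed rats (5.43 to 5.86) all lay below the controls (6.07 to 6.86). Among the apoptosome, caspases and inhibitors (18 detected), Birc3, an inhibitor of apoptosis, rose by 0.75 in CS+LPS (limma, adjusted p = 0.0400) and by 0.72 with PPG (0.0369), and by 0.72 and 0.73 within slides. With NaHS it was higher by 0.42 without being called (limma, adjusted p = 0.223). It read 9.01, 8.88 and 8.98 in control, 9.58, 9.52 and 10.01 in CS+LPS, 9.33, 9.44 and 9.36 with NaHS, and 9.85, 9.47 and 9.69 with PPG. Every exposed rat lay above every control. No gene of the death receptor pathway (10 detected) was called.

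Called p53 regulators and targets of these lists were all lower, whereas Fas, a p53 target outside them, was called higher with NaHS by the fold rule. Hipk2, a kinase that activates p53, was the only one of 10 detected regulators called and read 15.02, 14.64 and 15.17 in control, 13.91, 14.17 and 14.02 in CS+LPS, 14.20, 14.56 and 14.47 with NaHS, and 13.90, 14.28 and 13.64 with PPG. It fell by 0.91 in CS+LPS (limma, adjusted p = 0.0450) and by 1.00 with PPG (0.0289). Of 21 detected p53 targets, Gdf15, a secreted stress protein, fell by 1.40 in CS+LPS (limma, adjusted p = 0.0247) and by 1.03 with PPG (0.0428). It read 9.48, 9.63 and 10.35 in control, 8.14, 8.70 and 8.42 in CS+LPS, 9.10, 8.74 and 9.10 with NaHS, and 8.58, 9.0 and 8.78 with PPG, and all exposed rats lay below control. Without control 3, the highest, the differences were -1.13 in CS+LPS (limma, adjusted p = 0.0284) and -0.77 with PPG (0.0608), the latter under a fold of 2. Btg2, an antiproliferative gene, and Tp53i11 fell with PPG by 0.76 and 0.65 (limma, adjusted p = 0.0406 and 0.0370). Their means in CS+LPS and with NaHS were also below control, without a call. They were 13.20 and 13.24 against 13.55 for Btg2, and 11.86 and 11.86 against 12.16 for Tp53i11. Without control 3 the adjusted p of limma rose above 0.05 for Hipk2 in CS+LPS (0.0834), Btg2 (0.0657), Bcl2l10 in CS+LPS (0.0590) and Birc3 in CS+LPS (0.0590). Those calls by adjusted p were lost, but the Bcl2l10 difference in CS+LPS was then -1.34, still over a fold of 2. The PPG rats also had the highest summed signal of fat markers among the exposed groups (13.21 to 13.69, against 12.20 to 12.90, with control from 11.81 to 13.67) and heart muscle markers from 15.35 to 16.14, where control ran from 12.63 to 16.49. Pancreas markers (3 of 5 detected) summed to 11.36 to 11.96 with NaHS, above control (10.52 to 10.82) and CS+LPS (10.67 to 10.95). With PPG that sum ran from 10.71 to 11.62. The part of these markers' tissues in the differences of this report was not tested.

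**Figure D5:**
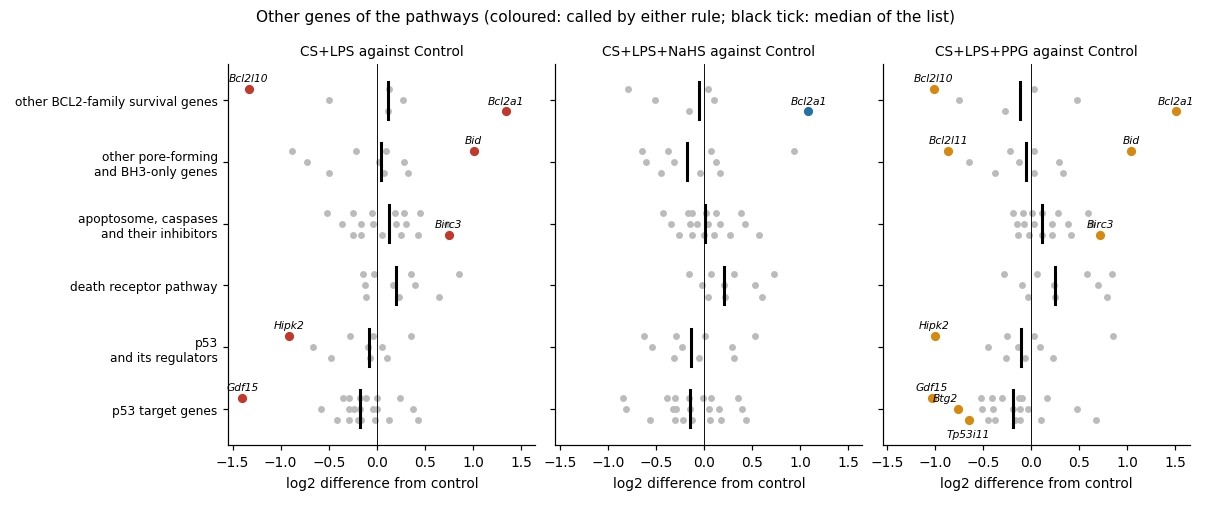
Difference from control in log2 signal for the 75 detected genes of 6 other lists in the CS+LPS group and the groups given NaHS or PPG, with a point per gene, the median of each list as a black tick, and genes called by either rule coloured and named. The list medians range from -0.19 (p53 target genes with PPG) to 0.24 (death receptor pathway with PPG). The called genes include Bcl2a1 on the right (1.35 in CS+LPS) and Gdf15 on the left (-1.40).

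The genes whose signal was most like that of each member over the 12 arrays were found by Pearson's r, as a description that shares the scaling of the arrays and the group differences. For Bcl2l1 they were Ovol2 (0.91) and Gtse1 (0.90), and for Fas Plekho1 (0.96) and Hsdl2 (0.94). For Cdkn1a they were Hba-a1 (0.96), a haemoglobin chain, and Hmx1 (0.95), and for Mdm2 Tsc22d1 (0.93) and Tmem150a (0.92). For Bcl2 they were Myo9b (0.96) and Kdm6b (0.95), for Mcl1 Krt2 (0.92) and Capn7 (0.91), and for Bax Chmp3 (0.96) and Kyat3 (0.96). For Bbc3 they were Bsdc1 (0.83) and C13h1orf115 (0.83), and for Casp8 Ctnnb1 and Ensa (both 0.90). Without control 3 all these r lay between 0.83 and 0.94.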

How the data were processed

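The authors deposited the Feature Extraction 10.7.3.1 output of 12 single-colour arrays (design build rn4), in which the processed signal is a linear intensity with the background already removed. They also deposited 5 lists of changed probes with their own fold ratios and p-values, whose values were not used, including 120 columns of single-array values; a probe position was read from one. Flags for spots and for signal above background came per the file headers. Groups came from the labels. Signals were put on the log2 scale, outlier spots left out, spots of a probe averaged and each array set to a common 75th percentile. A probe was detected, and kept, when every array of some group marked it well above background (21239 of 30367). Symbols came from RefSeq accessions (GRCr8 table, names only), which matched 17514 probes. limma 3.58.1 in R 4.3.3 was fitted to all 12 arrays, with 6 comparisons and Benjamini-Hochberg adjustment over all detected probes, and was tested on simulated data. Named genes are the 9 members, genes of the lists called by either rule, and the 2 genes most like each member. The members and lists were chosen with earlier results of these data known. Arrays give no depth, and the number of rats limits the precision.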

Additional observations from a re-analysis of the deposited data

How the results depend on the processing

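The values were recomputed with quantile normalization, with a percentile taken only over probes above background everywhere, with normexp (offset 50, median signals), with outlier spots included, with a slide block and with a replicate block. Stricter and no filters, a fit to the compared groups alone, the methods' t-test, the mean of all probes of a gene and the removal of each array were also tried. The Bcl2l1 difference kept its direction throughout, with ranges of -0.90 to -0.60 (CS+LPS), -0.84 to -0.68 (NaHS) and -0.86 to -0.65 (PPG), but its adjusted p of limma ranged from 0.0285 to 0.381 in CS+LPS and from 0.0317 to 0.177 with PPG. Genes with an adjusted p under 0.05 went from 1 to 0 in CS+LPS against control and in PPG against control with the replicate block, no filter, only the 2 groups compared, and the methods' t-test. The shares of all probes also fell, to 0.372% and 0.151% (replicate block) and 0.382% and 0.366% (no filter). They were 0.0141% and 0% with only the 2 groups, and 0.00471% and 0% with the t-test. PPG against control gave 2 (Bcl2l1 and Fas) when probes had to be above background on all 12 arrays, where 6.81% of all probes passed. With the slide as a block CS+LPS against control gave 4 (Bcl2, Bcl2l1, Fas and Cdkn1a), but control 3 is then the only control and 41.6% of all probes passed. PPG against control gave 0 (3.02% of all probes), and NaHS and PPG against CS+LPS gave 1 each (Cdkn1a), below the shares of all probes (23% and 22.6%). By the fold rule, NaHS against control fell from 1 to 0 with normexp or the slide block, PPG against control rose from 0 to 1 with quantile normalization, and NaHS against CS+LPS rose from 0 to 1 with the percentile over probes above background everywhere, each time for Fas. Leaving out 1 array gave 0 to 1 genes with an adjusted p under 0.05 in CS+LPS against control (0.137% to 6.1% of all probes). It gave 0 to 2 in PPG against control (0.0565% to 7.84%). Against CS+LPS it gave 0 to 1 with NaHS (0.141% to 1.85%) and with PPG (0.221% to 1.33%). By the fold rule it gave 0 to 1 in NaHS against control, PPG against control and NaHS against CS+LPS, with 0 in NaHS against control only without control 3, 1 in PPG against control without control 1, control 2 or PPG 2, and 1 in NaHS against CS+LPS without CS+LPS 2 or NaHS 3, each time Fas. The calls by adjusted p against CS+LPS (Fas) came without control 3, where 1.85% (NaHS) and 1.33% (PPG) of all probes passed. The Bcl2l1 probe A_64_P054730 reversed with the slide as a block, to 1.48 for NaHS and 1.46 for PPG against CS+LPS, where the estimate rests on control 3. Of 580 alternatives of 26 single values, 490 stayed the same, 63 lost a call, 17 gained one, 8 moved and 2 reversed. A called value stayed the same when it kept its call and direction. An uncalled value did so when it stayed uncalled and shifted by at most the SD within the groups, whatever its sign. A change of sign between uncalled values was therefore not counted as reversed. The cause of these changes was not tested. Normexp moved the median of all probes in CS+LPS against control from -0.04 to -0.14, and with NaHS from 0.00 to -0.10. Replicate numbers did not pair the rats: of 18 correlations of same-numbered deviations (-0.31 to 0.14), 2 were over 0.1, and 1 of 12 arrays correlated best with its own number.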
